A study of Mus musculus with 2 samples.

Results

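Foxp3+ T cells were 182 of 26017 cell barcodes in mouse KPC pancreatic tumours profiled by droplet single-cell RNA-seq: 174 in the knockout library and 8 in the control library. A barcode counted as a member when it had 500 or more genes and no more than 15% of UMIs from mitochondrial genes. It also needed at least 2 UMIs in the sum of Cd3d, Cd3e, Cd3g and Trac, and at least 1 UMI of Foxp3. No UMI of Cd8a or Cd8b1 was allowed, and at most 5 UMIs in the sum of Krt8, Krt18 and Krt19. A UMI, a unique molecular identifier, tags 1 captured RNA molecule. The members were therefore chosen from measured values, and the levels of those 10 genes are given only as a description. Levels are UMIs summed over a set of cells per 1000000 UMIs of that set (CPM). Intervals in parentheses are exact 95% intervals that cover counting error only.

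The control tumours came from Porcn fl/fl littermates without a Cre, and the knockout tumours from Csf1r-Cre;Porcn fl/fl mice, so both groups carried the floxed allele. In all animals KPC pancreatic cancer cells had been implanted orthotopically, and tumours were taken on day 21. Tumours of 5 mice were pooled for each genotype and gave 1 library. Without replicates the genotypes could not be tested against each other. The Csf1r promoter drives Cre in macrophages and related myeloid cells, and Porcn is the acyltransferase that Wnt proteins need for secretion.

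Regulatory T cells are CD4+ T cells that restrain other immune cells, and Foxp3 is the transcription factor that fixes their identity. They carry the high-affinity IL-2 receptor subunit Il2ra and depend on IL-2 that other cells make. Ctla4 takes costimulatory ligands away from dendritic cells, and members of the TNF receptor family such as Tnfrsf4 and Tnfrsf18 support their survival and expansion. In tumours, activated regulatory T cells are known for high levels of these receptors.

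The filters on genes and mitochondrial UMIs kept 11664 control and 10808 knockout barcodes, with medians of 12235 and 10321 UMIs. Porcn stood at 7.22 CPM (6.82 to 7.63) over kept control barcodes and at 4.95 CPM (4.59 to 5.34) over kept knockout barcodes. Macrophages were taken as barcodes with at least 5 UMIs of the complement genes C1qa, C1qb and C1qc. They also had no Cd3d, Cd3e, Cd3g or Trac UMI and at most 5 keratin UMIs. Porcn had 5 UMIs in 234 such control barcodes and 0 UMIs in 252 such knockout barcodes. The members held 1 Porcn UMI in each library. The libraries shared 46 barcode sequences, none of them a member. A doublet caller, Scrublet, marked none of the 182 members.

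Knockout members had a median of 3747 UMIs and 1664.5 genes, against 3615 UMIs and 1551 genes in the 1432 T cells of that library without a Foxp3 UMI. Those other T cells comprised 308 with Cd4 and no Cd8 UMIs (Cd4+), 728 with Cd8 UMIs (Cd8+) and 396 with neither. Median depth was 3348 UMIs in the Cd4+ and 4251.5 in the Cd8+ cells. The members showed a Cd4 UMI in 88 of 174 cells (50.6%). Foxp3 itself was seen as a single UMI in 95 knockout members, as 2 UMIs in 51, as 3 in 18, and as 4 to 6 in 10. At such levels a regulatory T cell is easily missed, so the cells without a Foxp3 UMI are not all cells without Foxp3.

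Other Foxp3+ barcodes lay outside the rule. In the knockout library 28 T cells had both Foxp3 and Cd8 UMIs, 16 Foxp3+ barcodes without Cd8 UMIs exceeded the keratin limit, 11 had 1 T cell UMI and 8 had none. The 11 with 1 T cell UMI held 5564 CPM of Ikzf2 and 1855 CPM of Ctla4. The 16 with more keratin held 579 CPM of Ikzf2 and 1460 CPM of Krt18. Just inside, 6 members with exactly 2 T cell UMIs held 3133 CPM of Ikzf2, and 6 members with 3 to 5 keratin UMIs held 2178 CPM.

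Promoter windows are shown for 4 receptor genes that stood higher in the members, because Tnfrsf4 and Tnfrsf18 lie next to each other on chromosome 4 and Il2ra and Ctla4 are the receptors by which the cells are best known. Each window runs from 250 bases before to 50 bases after the start, 5′ to 3′ on the plus strand, in RefSeq on GRCm38.p6. Capitals mark a match to the letters TTCNNNGAA, a STAT-type motif.
Il2ra, chr2:11642542-11642841: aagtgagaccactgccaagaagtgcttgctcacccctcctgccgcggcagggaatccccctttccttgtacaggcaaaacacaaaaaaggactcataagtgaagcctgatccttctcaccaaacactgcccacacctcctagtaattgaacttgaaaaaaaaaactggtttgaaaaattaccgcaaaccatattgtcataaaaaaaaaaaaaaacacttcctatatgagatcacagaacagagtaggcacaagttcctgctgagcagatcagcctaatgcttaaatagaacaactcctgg
Ctla4, chr1:60908775-60909074: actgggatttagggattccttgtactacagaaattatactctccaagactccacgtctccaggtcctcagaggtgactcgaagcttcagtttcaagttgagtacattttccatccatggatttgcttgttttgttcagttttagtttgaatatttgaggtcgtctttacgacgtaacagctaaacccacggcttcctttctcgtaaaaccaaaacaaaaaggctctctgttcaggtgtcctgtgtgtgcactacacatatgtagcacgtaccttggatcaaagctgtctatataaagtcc
Tnfrsf4, chr4:156013445-156013744: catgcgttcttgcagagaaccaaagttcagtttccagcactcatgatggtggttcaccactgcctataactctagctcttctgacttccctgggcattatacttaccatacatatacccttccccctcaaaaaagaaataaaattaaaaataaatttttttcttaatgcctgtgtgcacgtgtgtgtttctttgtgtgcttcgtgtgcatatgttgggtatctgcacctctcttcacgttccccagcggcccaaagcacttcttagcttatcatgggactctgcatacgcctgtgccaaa
Tnfrsf18, chr4:156026072-156026371: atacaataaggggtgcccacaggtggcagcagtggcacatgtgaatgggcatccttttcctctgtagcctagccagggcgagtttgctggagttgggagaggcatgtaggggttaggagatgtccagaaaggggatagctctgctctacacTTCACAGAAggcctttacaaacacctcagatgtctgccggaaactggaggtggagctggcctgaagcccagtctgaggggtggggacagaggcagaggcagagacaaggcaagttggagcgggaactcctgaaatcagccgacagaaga
The search covered both strands. TTCNNNGAA was found 1 time in the Tnfrsf18 window and not in the other 3, while 8.30% of 32851 windows of this length held it. The forkhead letters GTAAACA were in none of the 4 windows and in 3.65% of all windows, and the AP-1 letters TGACTCA were in none of the 4 and in 5.20% of all. These matches describe letters in the windows and no binding. The table held no window for Ikzf2 or Klrg1.

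The share of T cells with Foxp3 was 10.6% in the knockout library (174 of 1634, 9.19 to 12.2) and 4.52% in the control library (8 of 177, 1.97 to 8.71). The knockout share was thus 2.36 times the control share (1.17 to 5.54), an interval that covers counting error only and does not include the spread between mice. Among T cells without Cd8 UMIs the shares were 19.8% and 12.3%, a ratio of 1.61 (0.799 to 3.79), so this smaller difference lay within counting error. After each cell was thinned to 1000 UMIs, which evens out depth, the shares were 4.18% and 1.73% with a ratio of 2.41 (0.791 to 11.98). The direction held in each of these denominators, but of these 3 ratios only the one over all T cells had an interval that excluded 1.

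Of all kept barcodes, the members were 1.61% in the knockout and 0.0686% in the control library. T cells of all kinds numbered 1634 and 177 there, so the libraries also differed in T cells as a whole. As background, a Foxp3 UMI occurred in 1 of 252 knockout and 0 of 234 control macrophages. Among keratin-high barcodes it occurred in 5 of 4548 (0.110%) and 0 of 7171. Both sets were chosen to have no Cd3d, Cd3e, Cd3g or Trac UMI. Barcodes mixed with T cell RNA were thus left out, and this background does not cover them.

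**Figure D1:**
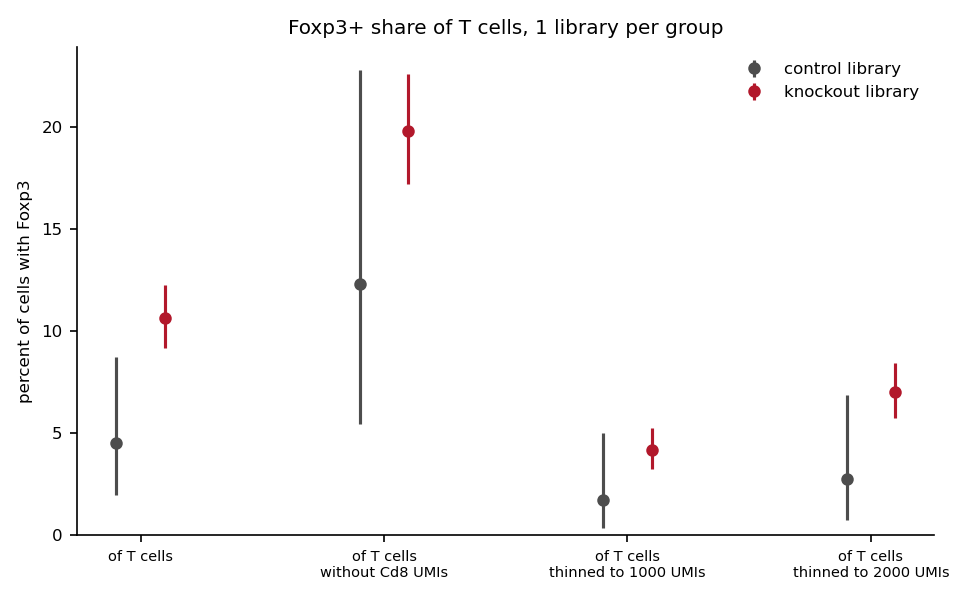
Percent of T cells that were Foxp3+ (vertical axis) in the control and knockout library, over all T cells, over T cells without Cd8 UMIs, and after thinning to 1000 or 2000 UMIs per cell. Points are single libraries and bars are 95% Clopper-Pearson intervals for counting error. The knockout point is higher in all 4 settings, and the bars overlap in the last 3.

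The members stood apart from other T cells by several receptors of regulatory T cells and by the factor Ikzf2, but not by their transcription factors as a group. Each ratio below compares knockout members with the knockout T cells that had no Foxp3 UMI, with 1 UMI added to both sums. A gene entered with at least 20 UMIs in the members, or 20 expected there from the comparison cells, and was called at 2-fold or more. A gene rare in the comparison cells could thus enter only by being high in the members, and the reverse. Counts of called genes therefore include genes whose direction the entry rule fixed, in the lists and among all genes. Among 6622 entered genes 4.47% were called higher and 4.29% lower, and the median log2 ratio was 0.094. Against the Cd4+ cells, 4.06% of 6697 genes were called higher and 4.67% lower. Against the Cd8+ cells, 6.24% of 6607 were called higher and 4.65% lower. Of 6391 genes that entered in all 3 comparisons, 163 were higher and 105 lower against both the Cd4+ and the Cd8+ cells. The rule removed Cd8 from the members while 728 of the 1432 other T cells were Cd8+, so counts of the lists are also given against the Cd4+ cells.

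All 4 remaining marker genes of the label were called higher in each of the 3 comparisons. Ikzf2 (ENSMUSG00000025997, chromosome 1, 69531214 to 69687245), which encodes the Foxp3 partner Helios, reached 2303 CPM in the members against 391 in other T cells, 558 in Cd4+ and 179 in Cd8+ cells. Its log2 ratio was 2.56 (2.47 to 2.64) against other T cells and 2.04 (1.92 to 2.17) against Cd4+ cells. It had a UMI in 167 of the 174 members.

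Il2ra (chromosome 2, 11642807 to 11693193) stood at 423 CPM in members (383 to 467), 124 in Cd4+ and 46.6 in Cd8+ cells. Tnfrsf4, which encodes the costimulatory receptor OX40, stood at 1114 CPM in members, 400 in Cd4+ and 94.6 in Cd8+ cells. Ctla4 stood at 1077 CPM, against 409 and 262. The order was the same for all 3 genes, with members above Cd4+ cells and Cd4+ cells above Cd8+ cells.

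In the control library the 8 members held 253 CPM of Il2ra, 861 of Ctla4, 494 of Tnfrsf4 and 1329 of Ikzf2. The 169 other control T cells held 58.7, 222, 76.0 and 191 CPM of the same genes. For none of the 4 genes did the intervals of those sets overlap, and the direction was the same as in the knockout library. A single barcode with macrophage UMIs supplied 43547 of the 78998 UMIs of those 8. Without it and another barcode with neutrophil UMIs, the 6 others held 412 CPM of Il2ra, 2027 of Ctla4, 1134 of Tnfrsf4 and 3402 of Ikzf2. Ikzf2 and Ctla4 thus turned from below to above the knockout members. Tnfrsf4 turned from below to near their 1114 CPM, and Il2ra to near their 423 CPM.

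**Figure D2:**
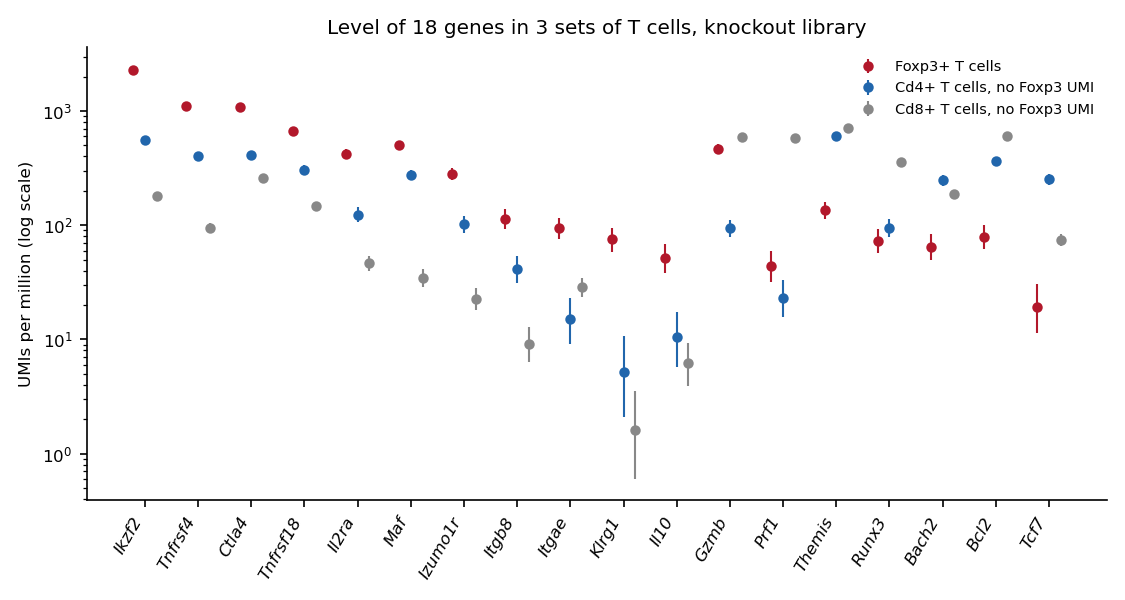
Level of 18 genes in CPM (vertical axis, log scale) in the 174 Foxp3+ T cells, the 308 Cd4+ and the 728 Cd8+ T cells without Foxp3 UMIs of the knockout library. Points are sums over cells and bars are 95% Poisson intervals. Ikzf2, Tnfrsf4, Ctla4 and Il2ra are highest in the Foxp3+ cells, and Bcl2, Tcf7, Bach2 and Themis lowest.

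Seen cell by cell at equal depth, each of these markers was detected in a larger share of members than of Cd4+ cells. After thinning to 1000 UMIs, Ikzf2 was detected in 80.8% of 172 members (74.1 to 86.4) and 26.0% of Cd4+ cells, with 3.57% of macrophages and 3.80% of keratin-high barcodes as background. Tnfrsf4 was detected in 55.8% of members and 26.6% of Cd4+ cells, Ctla4 in 51.7% and 21.8%, and Il2ra in 29.7% and 7.79%. Their background in macrophages was at most 0.794%. Without thinning, the member percentages were 96.0, 82.2, 84.5 and 64.4 in the order Ikzf2, Tnfrsf4, Ctla4 and Il2ra.

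The 4 markers also met in the same cells. All 4 had a UMI in 51.7% of knockout members (44.0 to 59.4), and at least 3 in 79.9%. The share with all 4 was 9.74% in Cd4+ cells, 8.84% in T cells without Cd4 or Cd8 UMIs and 2.06% in Cd8+ cells. Of the 28 cells with both Foxp3 and Cd8 UMIs, which the rule left out, 39.3% had all 4 (21.5 to 59.4). These 28 cells had a median of 6295.5 UMIs, held 3091 CPM of the cytotoxic T cell chemokine Ccl5 against 598 in members, and included 1 Scrublet doublet (3.57%). Whether they were doublets was not tested.

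Costimulatory receptors were high as a group. Of 12 entered genes of the TNF receptor and costimulation list, 7 were called higher and 0 lower, with a median log2 ratio of 1.21, and against Cd4+ cells 5 of 13 were higher and 1 lower. Tnfrsf18, the receptor GITR, stood at 672 CPM in members, 308 in Cd4+ and 146 in Cd8+ cells. Tnfrsf9, an activation receptor of T cells, stood at 574 CPM against 214 and 219. Tnfrsf1b, the TNF receptor through which regulatory T cells expand, stood at 212 CPM against 85.1 and 89.5. Tnfrsf8, the receptor CD30, was rarer at 25.8 CPM but 7.60-fold higher than in other T cells, with 24 UMIs in 17 members. Tnfrsf8 entered only through those member UMIs. Icos stood at 528 CPM against 295 in Cd4+ cells, a log2 ratio of 0.84 there and thus below the 2-fold line. Cd27 and Cd28 stayed within 2-fold in all 3 comparisons.

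The inhibitory receptors split. Of 13 entered, 2 were called higher and 5 lower, with a median of -0.40, but against Cd4+ cells 2 of 11 were higher and 3 lower and the median turned to 0.046. Ctla4 and Tigit were the higher pair, Tigit at 89.2 CPM in members and 40.3 in Cd4+ cells. Pdcd1, which encodes PD-1, stood at 82.8 CPM in members, 163 in Cd4+ and 253 in Cd8+ cells. After thinning, Pdcd1 was detected in 6.98% of members (3.66 to 11.9) and 15.4% of other T cells (13.5 to 17.3). Its share in Cd4+ cells was 12.3% (8.88 to 16.5), an interval that overlaps that of the members. Havcr2, which encodes TIM-3, was lower than in Cd8+ cells by 2.01 on the log2 scale, but stood at 49.4 CPM against 39.6 in Cd4+ cells. Cd160 and Cd244a, receptors of cytotoxic cells, had 1 and 5 member UMIs.

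Among the genes of the IL-2 axis, Socs2 and Il2ra were called higher and Bcl2 lower of 12 entered, against other T cells and against Cd4+ cells alike. The signalling chains Il2rb and Il2rg stood at 310 and 222 CPM in members, 293 and 183 in other T cells, and 187 and 191 in Cd4+ cells. Jak1, Jak3, Stat5a and Stat5b stayed within 2-fold in all 3 comparisons. Among the targets of STAT5, Socs2 stood at 53.7 CPM in members and 25.4 in Cd4+ cells, and Cish at 83.8 and 57.5. Il2 had 1 UMI in the members and 11 in the other T cells, so its level could not be compared at this depth.

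Bcl2, the survival factor that IL-7 and IL-2 signals maintain in resting T cells, went the other way. It stood at 79.5 CPM in members (62.5 to 99.9), 363 in Cd4+ and 611 in Cd8+ cells. At 1000 UMIs per cell it was detected in 5.23% of members and 28.9% of Cd4+ cells. A single member held 32% of its UMIs, so the typical member was lower still. Mcl1, a related survival factor, stood at 245 CPM in members and 254 in Cd4+ cells.

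The transcription factors did not move as a group: 3 of 16 entered were higher and 4 lower, with a median of -0.20, and against Cd4+ cells 3 were higher and 3 lower. Besides Ikzf2, Ikzf4, which encodes the Foxp3 partner Eos, stood at 74.2 CPM in members and 29.1 in Cd4+ cells. Nr4a1, an early response gene of T cell receptor signalling, stood at 73.1 CPM against 35.1, with 24% of its UMIs in 1 cell. Nr4a2 stood at 33.3 CPM in members and 131 in other T cells, but 56.7 in Cd4+ cells, which is within 2-fold.

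Bach2, which holds T cells in a resting state, stood at 64.5 CPM in members, 247 in Cd4+ and 188 in Cd8+ cells. Foxp1 stood at 137 CPM in members, 338 in Cd4+ and 292 in Cd8+ cells. Both were called lower in all 3 comparisons. Runx3, the factor of the Cd8 lineage, stood at 73.1 CPM against 357 in Cd8+ and 94.8 in Cd4+ cells, so that its call rested on the Cd8+ cells. Ikzf1, Foxo1, Foxo3, Runx1, Cbfb and Stat3 were within 2-fold of other T cells.

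Of the factors of effector T cells, Maf, Ahr and Myb were called higher and Bcl6 and Id2 lower, of 17 entered (median 0.37). Against Cd4+ cells Myb alone was higher and 2 were lower, and the median was -0.023. Maf, which drives IL-10 in several T cell types, stood at 500 CPM in members, 278 in Cd4+ and 34.8 in Cd8+ cells, so it was within 2-fold of Cd4+ cells. Macrophages also express Maf: after thinning it was detected in 36.6% of members and 33.7% of macrophages. Macrophage markers in the members came to 44.1 CPM for the list of 8, with C1qa and Adgre1 at 0, against 367 CPM in other T cells. Bcl6, the factor of follicular helper cells, stood at 16.1 CPM in members and 64.2 in Cd4+ cells. Batf, Irf4, Prdm1, Gata3, Tbx21 and Rora stayed within 2-fold of other T cells.

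Several genes tied to suppressive function were higher. Of 15 entered, 6 were called higher and 1 lower, with a median of 0.83, and against Cd4+ cells 7 were higher and 1 lower. Itgb8, the integrin chain that releases active TGF-beta, stood at 114 CPM in members, 41.1 in Cd4+ and 9.16 in Cd8+ cells. Lrrc32, the GARP protein that holds latent TGF-beta on the cell surface, stood at 27.9 CPM against 5.23 and 1.08. With 26 UMIs in members and 26 in other T cells, Lrrc32 entered only through the members, so it could only be counted as higher. Tgfb1 itself stood at 105 CPM in members and 100.03 in Cd4+ cells.

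Il10 stood at 51.6 CPM in members and 10.5 in Cd4+ cells, but only 14 members had a UMI of it. Ebi3, a subunit of IL-35, stood at 31.2 CPM in members, 23.9 in Cd4+ and 2.69 in Cd8+ cells, so it differed from Cd8+ but not by 2-fold from Cd4+ cells. Il12a, the partner subunit, had no UMI, with an exact upper bound of 3.96 CPM. Areg, a growth factor of tissue repair, stood at 75.2 CPM against 14.2 in Cd4+ cells, yet 1 cell held 56% of its UMIs. Entpd1, the ectoenzyme CD39, stood at 157 CPM in members, 81.4 in Cd4+ and 186 in Cd8+ cells.

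Gzmb, the protease granzyme B, stood at 464 CPM in members (422 to 510), 94.1 in Cd4+ and 590 in Cd8+ cells. Its partner Prf1, the pore protein perforin, stood at 44.1, 23.1 and 579 CPM. Against Cd4+ cells Gzmb was 4.91-fold higher in members and Prf1 stayed within 2-fold, with a log2 ratio of 0.92. Against Cd8+ cells Gzmb stayed within 2-fold and Prf1 was lower by 3.68 on the log2 scale. After thinning, Gzmb was detected in 27.3% of members (20.8 to 34.6), 24.5% of Cd8+ cells, 3.57% of Cd4+ cells and 0.397% of macrophages.

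**Figure D3:**
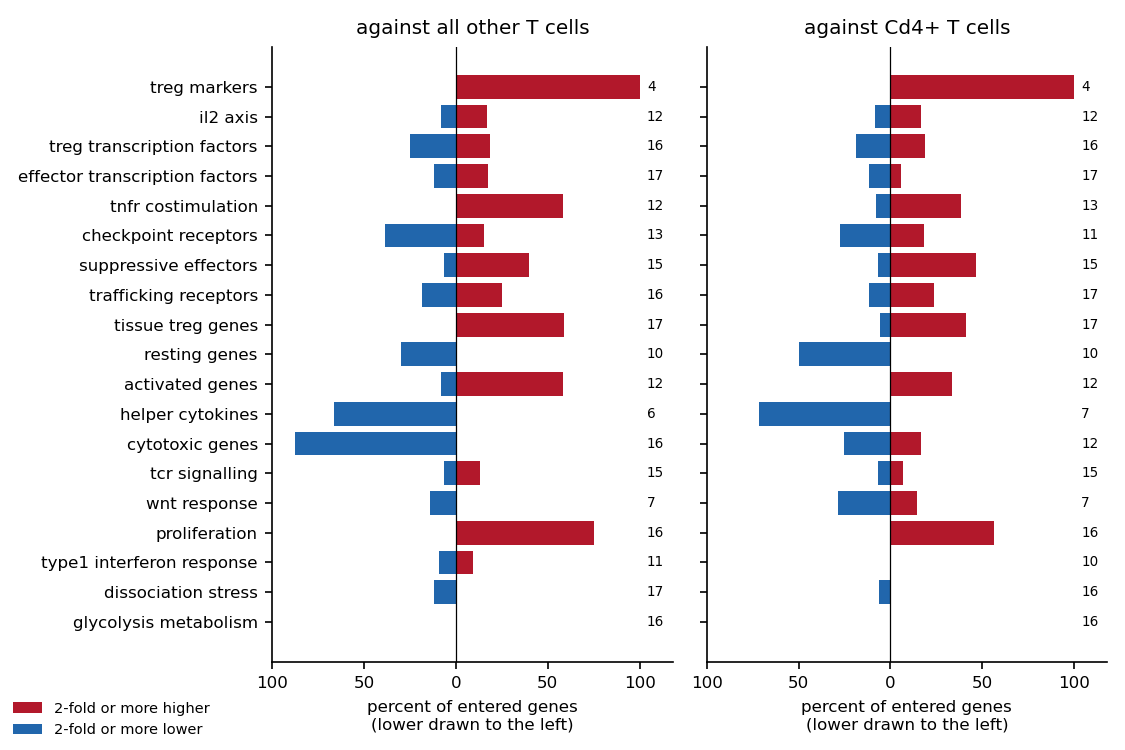
For 19 gene lists, the percent of entered genes called 2-fold or more higher (red, right) or lower (blue, left) in knockout Foxp3+ T cells, against all other T cells (left panel) and against Cd4+ T cells (right panel). The figure at the right of each bar is the number of genes entered. Cytotoxic genes are mostly lower on the left (14 of 16) and not on the right (3 of 12).

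Genes known from regulatory T cells of non-lymphoid tissue were largely higher: 10 of 17 entered were called higher and 0 lower, with a median of 1.47, and against Cd4+ cells 7 were higher and 1 lower. Klrg1, an inhibitory receptor of highly differentiated T cells, had the largest ratio of all genes that the naming rule admitted, at 75.2 CPM in members, 5.23 in Cd4+ and 1.62 in Cd8+ cells (18.4-fold over other T cells). Klrg1 entered only through its UMIs in the members. Izumo1r, the folate receptor FR4, stood at 283 CPM against 102 in Cd4+ cells. Glrx and Capg stood at 245 and 561 CPM, against 64.9 and 266 in Cd4+ cells. Il1rl1, the IL-33 receptor ST2, stood at 30.1 CPM in members, 16.4 in Cd4+ and 3.23 in Cd8+ cells. Il1r2 was an exception, with 84.9 CPM in members, 14.5 in Cd8+ and 109 in Cd4+ cells. Nrp1, often used as a mark of thymus-derived regulatory T cells, stood at 77.4 CPM in members and 166 in Cd4+ cells.

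Receptors of migration and adhesion moved unequally: 4 of 16 entered were called higher and 3 lower, with a median of 0.17, and against Cd4+ cells 4 of 17 were higher and 2 lower. The integrin chains Itgae and Itgb7, which pair to bind E-cadherin, stood at 94.6 and 275 CPM in members and 14.9 and 122 in Cd4+ cells. Ccr2, the receptor for the monocyte chemokine Ccl2, stood at 217 CPM against 83.6. Ccr8, a receptor known from tumour regulatory T cells, stood at 47.3 CPM against 32.8 in Cd4+ and 7.27 in Cd8+ cells. Itgb1 was lower at 191 CPM against 688 in Cd4+ cells, and the lymph node homing receptor Ccr7 at 8.60 against 48.5. Cxcr6, a receptor of tissue effector T cells, stood at 112 CPM in members, 166 in Cd4+ and 384 in Cd8+ cells.

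Cytokines of helper T cells were low. Of 16 genes, 6 entered against other T cells and 4 of these were called lower, and 5 of 7 against Cd4+ cells. Ifng stood at 14.0 CPM in members, 90.3 in Cd4+ and 291 in Cd8+ cells. Cd40lg, which licenses B cells and dendritic cells, stood at 4.30 CPM against 85.1 in Cd4+ cells, and Tnfsf8, the ligand of CD30, at 17.2 against 293. Only 2 members held Tnfsf8, and 1 of them had 94% of its UMIs. Il4, Il5, Il13, Il17a, Il17f, Il21, Il22 and Csf2 had no member UMI, with an exact upper bound of 3.96 CPM each. Il21 stood at 20.9 CPM in Cd4+ cells and was 6.48-fold lower in members when these were set to a floor of 3 counts. Tnf and Ltb stayed within 2-fold, Ltb at 932 CPM in members and 671 in Cd4+ cells.

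Of 16 entered cytotoxic genes, 14 were called lower than in other T cells (median -2.50, the same with Eomes, at 0 UMIs, set to its bound), but against Cd4+ cells 3 of 12 were lower and 2 higher (median 0.077). Klrd1, a receptor shared by NK and cytotoxic T cells, stood at 10.7 CPM in members, 105 in Cd4+ and 723 in Cd8+ cells. Ccl5 stood at 598 CPM in members, 573 in Cd4+ and 5678 in Cd8+ cells. Gzma stood at 43.0 CPM in members, with 92.5% of its UMIs in 1 cell.

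The members leaned to an activated state. Of 12 activation genes entered, 7 were called higher and 1 lower (median 1.32), while of 10 resting genes 0 were higher and 3 lower (median -0.68). Against Cd4+ cells 4 of the 12 activation genes were higher and 0 lower (median 0.84), and 5 of the 10 resting genes were lower. The activation list shares genes with lists given above, such as Tnfrsf9 with the costimulation list and Ccr8 with the tissue list. The lean to activation, also as counted per cell below, thus partly repeats the results of those lists. Tcf7, the factor of naive and memory T cells, stood at 19.3 CPM in members (11.5 to 30.6), 252 in Cd4+ and 74.9 in Cd8+ cells. Lef1 stood at 109 CPM in members, 322 in Cd4+ and 81.1 in Cd8+ cells. Klf2, also a gene of resting cells, stood at 173 CPM in members, 191 in other T cells and 239 in Cd4+ cells.

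Counted per cell, 135 of 174 knockout members (77.6%, 70.7 to 83.5) had more UMIs of the activation list than of the resting list, 34 had fewer and 5 had equal numbers. In 18 members the 2 sums differed by at most 1 UMI. The share was 42.2% in Cd4+ cells (36.6 to 47.9) and 54.7% in Cd8+ cells. The median member had 10 activation and 3 resting UMIs, and the median Cd4+ cell 3 and 6. In the control library 7 of 8 members leaned to activation.

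**Figure D4:**
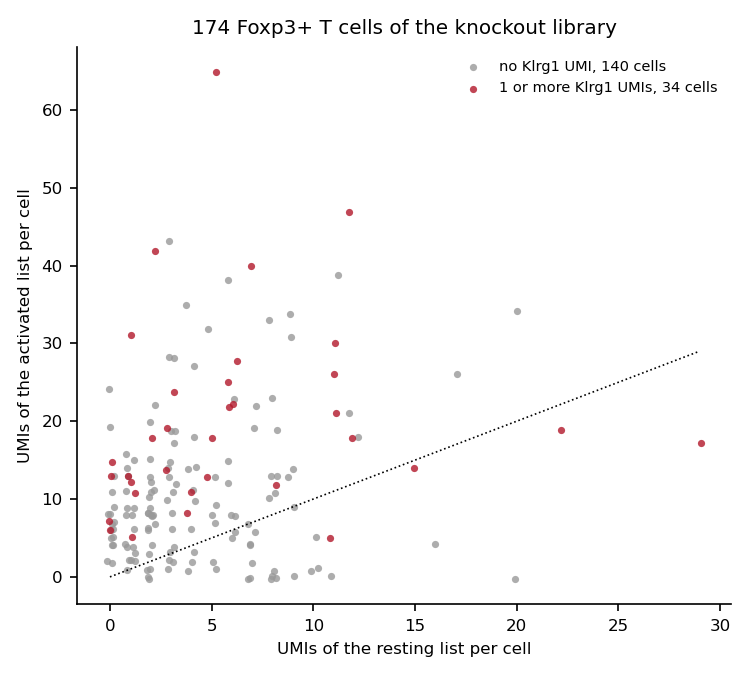
Each point is 1 of the 174 knockout Foxp3+ T cells, by its UMIs of the resting list (horizontal axis) and of the activation list (vertical axis), with small random shifts so that cells with equal counts can be seen. Red points are the 34 cells with a Klrg1 UMI. The dotted line marks equal numbers, and 135 cells lie above it.

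The 135 activated cells and the 39 others differed in genes outside both lists. These subsets were cut from measured values, so the following is description. The activated cells had a median of 4062 UMIs and the others 2651. Gzmb stood at 527 CPM in the activated and 70.5 in the other members, a ratio of 7.48 (3.90 to 16.5). Tnfrsf4 stood at 1203 and 548 CPM, Ctla4 at 1154 and 595, and Cxcr6 at 127 and 15.7. Nkg7, a granule protein, stood at 634 and 133 CPM.

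Il1rl1 ran against these, at 17.4 CPM in the activated and 110 CPM in the other members, a ratio of 0.159 (0.0703 to 0.360). Rora, a factor of tissue T cells, stood at 250 and 509 CPM, and Nrp1 at 51.1 and 243. Of the tissue list, Capg was higher in the activated cells, at 603 and 298 CPM. Klrg1, Itgae and Izumo1r had ratios of 0.853 (0.444 to 1.80), 1.01 (0.545 to 2.04) and 0.751 (0.544 to 1.06), each with an interval that included 1.

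Klrg1 marked 34 knockout members (19.5%), or 8.72% after thinning against 0.974% of Cd4+ cells. The 34 cells were deeper than the other 140, with medians of 5392 and 3629 UMIs, and depth raises the chance of a Klrg1 UMI. Tnfrsf4 stood at 1560 CPM with Klrg1 and 960 without, a ratio of 1.63 (1.43 to 1.85). Ctla4 had a ratio of 1.46 (1.27 to 1.66), Gzmb 1.73 (1.42 to 2.11) and Gata3, the factor of type 2 and tissue T cells, 2.27 (1.33 to 3.82). Within the 34, the top cell held 18.9% of the Tnfrsf4, 21.0% of the Ctla4, 24.8% of the Gzmb and 14.3% of the Gata3 UMIs. The intervals do not cover such differences between cells. Ccr9, a gut homing receptor, stood at 79.9 and 18.8 CPM. Bcl2 stood at 25.2 and 98.2 CPM and Klf2 at 105 and 196. Ikzf2 stood at 2053 and 2389 CPM.

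Other genes of tissue repair and suppression were only partly in the Klrg1+ cells. Il1rl1 had a UMI in 7 of the 34 and 9 of the 140 (20.6% and 6.43%). Il10 had a UMI in 5 of the 34 (14.7%) and 6.43% of the rest. Areg had a UMI in 2 of the 34 (5.88%) and 11.4% of the rest. Gzmb had a UMI in 18 of the 34 (52.9%) and 46.4% of the rest.

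Proliferation genes were higher in sum: 12 of 16 entered were called higher and 0 lower, with a median of 1.18, and 9 of 16 against Cd4+ cells. Mki67 stood at 243 CPM in members, 119 in Cd4+ and 143 in Cd8+ cells, and Birc5 at 118, 42.6 and 41.5. A set of 35 members with at least 2 UMIs of 7 mitotic genes had a median of 10689 UMIs, against 3169 in the other 139. After thinning, Mki67 was detected in 6.98% of members (3.66 to 11.9) and 4.63% of other T cells (3.60 to 5.85), with 4.22% in Cd4+ cells (2.27 to 7.11), intervals that overlap. Top2a was detected in 12.2% (7.72 to 18.1) and 6.73% (5.49 to 8.16), with 8.77% in Cd4+ cells (5.86 to 12.5).

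Within the members, the 35 dividing cells held less of several activation and tissue genes than the other 139. Itgae stood at 30.5 and 142 CPM, Ccr2 at 104 and 300, Cxcr6 at 35.5 and 168, and Maf at 335 and 621. Ctla4 stood at 1091 and 1066 CPM, a ratio of 1.02 (0.901 to 1.16), and Tnfrsf4 at 1112 and 1115. Batf was higher, at 178 and 125 CPM. Areg was also higher, at 147 and 22.4 CPM, a ratio of 6.58 (3.50 to 13.5), though a single member held most of its UMIs, as given above. Foxp3 stood at 178 and 425 CPM, which the rule affects: a shallow cell with 1 required UMI has a high CPM.

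T cell receptor signalling genes were near other T cells, with 2 of 15 called higher and 1 lower and a median of -0.043, and against Cd4+ cells 1 higher and 1 lower. Cd5, a damper of receptor signals, stood at 298 CPM in members, 214 in Cd4+ and 77.3 in Cd8+ cells. Themis, which sets signal strength in developing and mature T cells, stood at 135 CPM in members, 606 in Cd4+ and 707 in Cd8+ cells, 4.38-fold lower than in other T cells. Lck, Zap70, Lat and Lcp2 stayed within 2-fold in all 3 comparisons.

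Of 7 entered genes that respond to Wnt signals, 0 were called higher and 1, Tcf7, lower (median -0.089). Against Cd4+ cells Myc was higher and Tcf7 and Lef1 were lower. Lef1 and Tcf7 also belong to the resting list. Axin2, a direct Wnt target, had 7 member UMIs (7.52 CPM, against 10.6 in other T and 19.4 in Cd4+ cells). The receptor regulators Rnf43 and Znrf3 stood at 36.5 and 67.7 CPM, against 22.6 and 73.0 in other T cells and 19.4 and 59.7 in Cd4+ cells.

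Glycolysis genes were within 2-fold in 16 of 16 cases, also against Cd4+ cells, with a median of 0.35 against an all-gene median of 0.094. Ldha stood at 758 CPM in members and 462 in Cd4+ cells, and Pkm at 577 and 386. Type I interferon genes had 1 of 11 higher and 1 lower, with a median of -0.029, and 0 of 10 in either direction against Cd4+ cells. Ifi27l2a stood at 2094 CPM against 858 in other T and 1362 in Cd4+ cells, and Rsad2 at 2.15 against 34.7 and 20.9. Genes of the dissociation response had 0 of 17 higher and 2 lower (median 0.045), the lower being Fosb and Ier3, and against Cd4+ cells 0 of 16 higher and 1 lower.

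By size alone, the 12 highest genes admitted by the naming rule were Klrg1, Ankrd55, Rapsn, Frmd5, Rln3, Tnfrsf8, Lrrc32, Ccr9, Asb2, Cep112, Ikzf2 and Ttn. Except for Ikzf2, each of them entered only through its UMIs in the members. Their high ratios were thus in part fixed by the entry rule, and the ranking is a description. The rule left out genes with over 25% of member UMIs in 1 cell. Frmd5, a membrane scaffold protein, stood at 166 CPM in 36 members, 38.1 in Cd4+ and 2.16 in Cd8+ cells. Asb2, a subunit of ubiquitin ligases, stood at 70.9, 23.1 and 4.31 CPM. Ankrd55 stood at 38.7 CPM in members, 3.73 in Cd4+ and 2.96 in Cd8+ cells. Rapsn and Ttn, better known from muscle, stood at 48.4 and 72.0 CPM, against 6.72 and 39.6 in Cd4+ cells, so that Ttn was within 2-fold there.

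**Figure D5:**
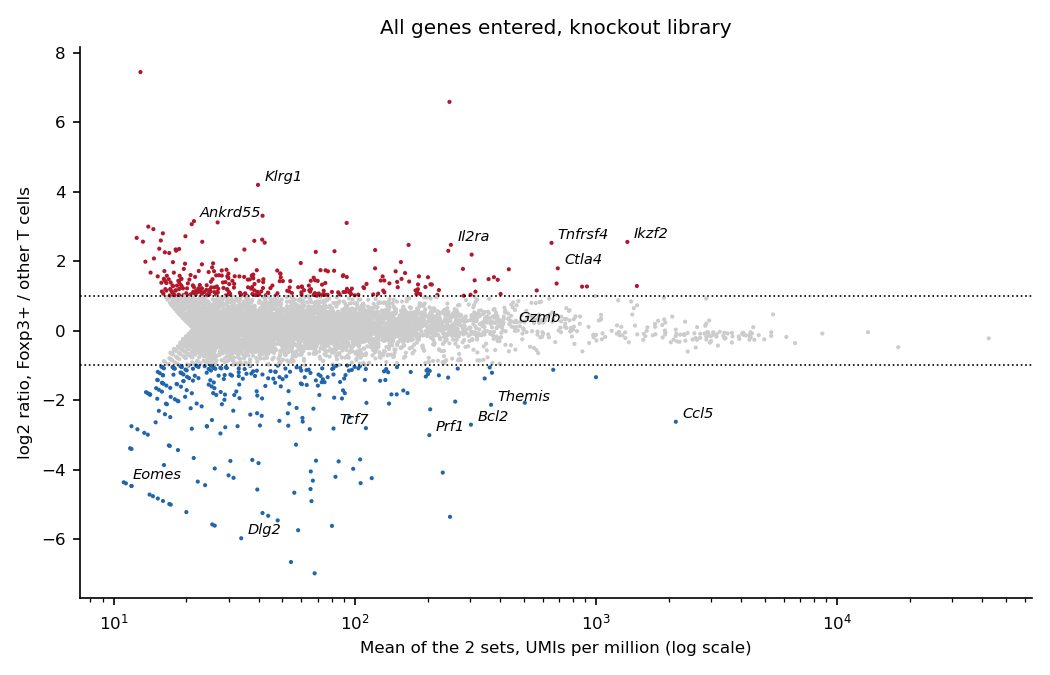
Every entered gene of the knockout library by its mean level in Foxp3+ and other T cells in CPM (horizontal axis, log scale) and its log2 ratio (vertical axis). Dotted lines mark 2-fold, with 296 genes on or above the upper and 284 on or below the lower line. The 2 points above 6 are immunoglobulin genes, Igkv6-32 and Ighg3, of which 1 member held 100% and 99.6% of the UMIs.

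The 12 lowest by the same rule, which for them also used the T cells without Cd8 UMIs, were Dlg2, Camp, St8sia1, Samd3, Mmp12, Apoe, Arg1, Cxcl2, Eomes, Fgf13, Tcf7 and Ntrk3. Dlg2, a scaffold protein known from synapses, had 0 UMIs in members and stood at 67.5 CPM in other T cells, 92.6 in Cd4+ and 75.7 in Cd8+ cells. With the members set to a floor of 3 counts, it was 20.9-fold lower than in other T cells. St8sia1, an enzyme of ganglioside synthesis, also had 0 UMIs and was 8.73-fold lower at that floor. Eomes, a factor of cytotoxic T cells, and Samd3 had 0 UMIs and were 6.96-fold and 7.34-fold lower than in other T cells at that floor. The exact intervals of these log2 ratios ended at -4.08 for Dlg2, -2.81 for St8sia1, -2.48 for Eomes and -2.56 for Samd3. Cd4+ cells held only 2.99 and 5.97 CPM of them, and Cd8+ cells 31.3 and 21.6 CPM. At the floor of 3 counts neither was shown to be 2-fold lower than in Cd4+ cells. Ntrk3, a neurotrophin receptor, stood at 6.45 CPM in members, 170 in Cd4+ and 19.1 in Cd8+ cells.

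Camp, Mmp12, Apoe, Arg1 and Cxcl2 are genes of myeloid cells. Macrophage markers stood at 367 CPM in other T cells and 44.1 in members, and neutrophil markers at 221 and 5.37 CPM. In other T cells single barcodes held up to 495 macrophage and 1068 neutrophil UMIs. With cells holding markers of other cell types left out, the log2 ratio of Arg1 moved from -4.99 to -0.017 and that of Apoe from -4.24 to -0.48. Those of Camp, Cxcl2 and Mmp12 moved from -5.01, -3.72 and -4.47 to 0.57, -0.60 and -0.75. Over all alternatives the log2 ratios of the remaining low genes stayed negative, the highest being -1.37 for Ntrk3. The part of such barcodes in the level of these remaining genes was not tested.

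Markers of other cell types in the knockout members varied by list. The plasma cell list stood at 286 CPM, with 243 of its 266 UMIs in 1 cell, and the fibroblast list at 422 CPM, with 340 of 393 UMIs in 1 cell. The B cell list stood at 97.8 CPM against 234 in barcodes outside the T cell gate, the epithelial list at 171 against 5290, and the acinar list at 81.7 against 1066. NK markers stood at 20.4 CPM against 188 in other T cells, with Eomes at 0. The list of type 2 innate lymphoid and mast cells stood at 50.5 CPM, against 38.6 in other T cells and 11.1 outside the gate, with 2 or more UMIs in 10 members. Its part in the results was not tested. The endothelial list stood at 77.4 CPM, against 69.6 and 23.5, of which 68 of 72 UMIs were Pecam1, a gene that leukocytes also express.

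A group of T cells without a Foxp3 UMI resembled the members in part. Among the 704 knockout T cells with neither Foxp3 nor Cd8 UMIs, 65 had UMIs of Il2ra, Ikzf2, Ctla4 and Tnfrsf4 together, with a median of 3466 UMIs. They were picked by those 4 genes, so only other genes are compared. Izumo1r stood at 253 CPM in them, 283 in members and 64.5 in the remaining 639. Itgb8 stood at 170, 114 and 24.3 CPM, Frmd5 at 158, 166 and 24.7, and Tcf7 at 41.7, 19.3 and 263.

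Other genes set these 65 cells apart from the members. Tnfsf8 stood at 236 CPM in them and 17.2 in members, Themis at 422 and 135, Dlg2 at 69.5 and 0, and Klrg1 at 16.7 and 75.2. The remaining 639 held 181, 457, 54.7 and 5.75 CPM of these genes, within 2-fold of the 65 cells except for Klrg1.

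The 8 control members ranged from 1074 to 43547 UMIs. A single one held 1833 UMIs of the neutrophil list with none of Ikzf2, Il2ra, Ctla4 or Tnfrsf4, and another held 174 UMIs of the macrophage list among 43547 UMIs. Scrublet marked neither. The other 6 held 29103 UMIs, with 3402 CPM of Ikzf2 (2765 to 4141), 2027 of Ctla4 (1543 to 2615), 1134 of Tnfrsf4 (781 to 1592) and 412 of Il2ra (213 to 720). The knockout members without their single such cell held 2326, 1089, 1126 and 427 CPM.

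Between libraries, the intervals of Tnfrsf4 and Il2ra thus overlapped, while those of Ikzf2 and Ctla4 lay above the knockout values in the 6 control cells. Maf stood at 1237 CPM (866 to 1713) in the 6 cells and 501 (456 to 549) in knockout members, and Gzmb at 653 (393 to 1019.5) and 469 (425 to 515). Klrg1 had 6 UMIs in the 6 cells, 206 CPM (75.7 to 449), against 76.1 (59.3 to 96.2). Areg and Bcl2 had 0 UMIs in the 6 cells, with an exact upper bound of 127 CPM, above the 76.1 and 80.5 CPM of the knockout members. With 6 cells from 1 pooled library, these are values of those cells and not of a genotype.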

How the data were processed

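Tumour cells were profiled with 10x Genomics 3′ chemistry, 1 library for each genotype. The deposited files hold UMI counts per gene and barcode (32285 genes), not normalized. Per the file headers they came from Cell Ranger 8.0.0, while the submitters' processing notes name Cell Ranger 3.1.3 and mm10, and other steps are not given in the sources used here. From these counts, cells were gated by the thresholds given with the results, with no doublets removed. UMIs were summed over sets of cells, given as CPM and compared as log2 ratios with a pseudocount of 1 UMI. Genes with 20 UMIs observed or expected entered, and the 10 gate genes were left out. With 1 library per genotype there was no test. Poisson, Clopper-Pearson and exact conditional ratio intervals (95%) reflect counting alone and leave out differences among mice.

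Depth was evened by thinning cells to 1000 UMIs (2000 as an alternative), and cells with fewer were left out. Keratin-high background barcodes had at least 20 keratin UMIs and no UMI of Cd3d, Cd3e, Cd3g or Trac. For thinned percentages 500 of them were drawn. Scrublet ran per library as an alternative, with an expected doublet rate of 0.08. Genes named were members of 9 lists plus the 12 highest and 12 lowest ratios. Those lists beyond the 9 are described by counts, and genes named from them, and those compared between subsets of members, were picked after their values were seen. From the 24 ranked genes were excluded gate, mitochondrial, ribosomal, immunoglobulin and unnamed gene models, genes with over 25% of UMIs in 1 member, and genes whose higher level was under 0.25 of that outside the T cell gate. The members and lists were chosen with earlier results of these data known. The ratio and interval code was tested on simulated data. Reads of Ikzf2, Maf, Bcl2, Tcf7, Tnfrsf18 and Foxp3 overlap other annotated genes, so their counts are less certain. Python 3.11.15, numpy 2.4.6, scipy 1.17.1, pandas 2.3.3 and scanpy 1.11.5 were used.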

Additional observations from a re-analysis of the deposited data

How the results depend on the processing

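No paired analysis was possible because each group had 1 library. The ratio of Foxp3+ shares, knockout over control, stayed above 1 in its 11 alternatives (1.61 to 3.01). The percent of members leaning to activation moved by less than its interval in 8 alternatives (73.4 to 83.5). Of 306 alternative list medians 20 changed sign, in 7 lists: cytotoxic, effector factor, inhibitory receptor, dissociation, T cell receptor, interferon and Wnt genes. Of 929 alternative gene ratios 11 changed sign, 4 of them for Gzmb (0.12 as reported).

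The control share was 12.3% without Cd8+ T cells in the denominator and 1.73% after thinning to 1000 UMIs. The knockout share was 19.8% and 4.18% under these, 7.01% after thinning to 2000 UMIs, and 5.17% with at least 2 Foxp3 UMIs required. With a minimum of 10 UMIs, 467 genes were higher and 466 lower, and with 50 UMIs 142 and 139. The minimum also sets how many genes enter, so these counts are not shares of the same total. Genes lower numbered 179 with 0 keratin UMIs allowed, 158 with cells carrying other cell type markers left out, and 158 with cells of 2 or more mitotic UMIs left out, an alternative chosen after seeing the data. These sets held fewer cells, so the number of genes entered could differ too, and any other cause was not tested.

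Against Cd4+ cells the median log2 ratio was 0.077 for cytotoxic genes and -0.023 for effector transcription factors, and against Cd8+ cells it was -0.13 for resting genes. The proliferation median was 0.15 without cells of 2 or more mitotic UMIs (chosen after seeing the data, and lowered by that selection itself), 1.67 without cells carrying other markers and 0.89 as a mean over cells. The log2 ratio changed sign for Havcr2 (0.33), Il1r2 (-0.35) and Prf1 (0.92) against Cd4+ cells, and for Arg1 with both libraries summed (3.24). That of Camp was 0.16 with Scrublet doublets removed, 0.996 against Cd8+ cells and 0.57 without cells carrying other markers. The cause was not tested. Without thinning and at 2000 UMIs, Ikzf2 was detected in 96.0% and 92.3% of members, Ctla4 in 84.5% and 73.7%, Tnfrsf4 in 82.2% and 71.2%, Il2ra in 64.4% and 47.4%, and Mki67 in 22.4% and 12.2%, since deeper cells show more genes. Pooled mice and 8 control members limit every statement on genotype.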
